A study of Homo sapiens with 3 samples.

Results

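Ubiquitin-specific proteases (USPs) were described in PC3 cells before and after knockdown of one of their number, USP16. The genes were chosen by name: every symbol made of USP, a number and an optional X was taken, which gave 51 symbols, and USP16 and the enzymes USP3, USP12, USP21, USP22 and USP46, which act on histone H2A, were left out. This left 45 USPs of 59719 gene names, and 38 of them averaged 1 TPM or more across the 3 libraries, as did 13637 genes in all, the tested genes. TPM is a read number corrected for the length of the transcript and brought to the same sum in every library, so levels of different genes can be compared. PC3 is an androgen-independent human prostate cancer line, and stable transformants carrying a pLKO.1 hairpin vector were selected with puromycin. There was 1 library from control cells (shCON, labelled RFP), 1 with shUSP16#1 and 1 with shUSP16#2, and the 2 hairpins target the same gene. The paper calls shCON a vector control, and what that vector carried is not given in the sources used here. With 1 library per condition no difference below has a replicate check and no p-value is given. A change is the difference in log2(TPM + 1) between a hairpin library and shCON, on which low genes move less than their TPM ratio, and pairs of changes are given for shUSP16#1 first. Both changes share the shCON library, so a deviation of that library would move both in the same direction. In bulk RNA, fewer cells expressing a gene and less RNA per cell cannot be told apart.

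USPs are cysteine proteases that cut ubiquitin from proteins. Ubiquitin chains can send a protein to the proteasome, so removal of a chain can prolong its life, and other ubiquitin marks steer traffic, DNA repair and signalling. c-Myc is a short-lived transcription factor, and USP7, USP28, USP36 and USP37 are known to remove ubiquitin from it. The paper also lists USP22 as a regulator of MYC stability, but it was left out here with the H2A enzymes. RNA levels of these enzymes do not measure their protein or activity.

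The targeted gene followed the labels: USP16 stood at 19.9 TPM in shCON against 3.5 and 1.08 TPM with shUSP16#1 and shUSP16#2. Epithelial KRT8 and KRT18 were between 622 and 947 TPM in every library, and EPCAM was between 136 and 274 TPM. KLK3, which PC3 cells are known to lack, was listed at 0 in every library. Of 6 markers of other cells, PTPRC, COL3A1 and PDGFRB stayed at or below 0.22 TPM, PECAM1 reached 1.28 TPM, COL1A1 was between 4.19 and 10.7 TPM, and CD68 was between 31.7 and 42.2 TPM. CD68 and COL1A1, which held nearly all of the level of this list, summed to 46.4, 44.9 and 36.5 TPM in shCON, shUSP16#1 and shUSP16#2, and their part in the results was not tested.

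The hairpin sequences are shown because a hairpin can act on transcripts other than its target. They are given as the antisense strand, 5′ to 3′, with the seed (bases 2 to 8) in capitals.
shUSP16#1: aTAAACATgatttcttctggc
shUSP16#2: aAATCTTGtggaatatcaccg
Each antisense strand was the exact reverse complement of the sense strand, and all 21 bases of each sense strand were found in the USP16 transcript. Among the 38 expressed USPs the longest run shared with the sense strand of shUSP16#1 was 12 bases, in USP9X.
USP9X: cagaagaaatca
For shUSP16#2 the longest run was 11 bases, in USP7.
USP7: ttccacaagat
The typical longest run was 8.5 bases for shUSP16#1 and 8 bases for shUSP16#2 (medians over the 38 USPs). A site for the seed of shUSP16#1, ATGTTTA, was present in the 3′ untranslated region of 13 of 37 expressed USPs with such a region, 35.1%, and of 19.3% of 11191 tested protein-coding genes. The median change under shUSP16#1 was -0.74 in the 13 USPs with the site and -0.38 in the others, and over all those genes it was -0.47 with the site and -0.14 without it. Sites of this kind are found more often in long regions, and the length of the region was not adjusted for. The site for shUSP16#2, CAAGATT, was present in 6 of the 37 USPs, 16.2%, and in 9.95% of the genes. Under that hairpin the USPs with the site had a median change of -0.82 and those without it -0.93. Over all those genes the order was the other way, with -0.77 with the site and -0.36 without it. A match is a description of the letters and not a site of action.

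MYC-MAX dimers bind the E-box CACGTG, which reads the same on both strands. Promoter windows of 300 bases were taken from RefSeq on GRCh38.p14 and were found for 33 of the 45 USPs, as 46 windows. The E-box was present in 4 of these windows, 8.7%, against 7.26% of 35116 windows of all genes. USP28 and USP36, both known c-Myc deubiquitinases, were among the 4, and their E-boxes are shown in capitals with the bases around them, on the strand of the gene.
USP28: ggggccgggatCACGTGaccgacgtctg
USP36: cgtcgcggtgaCACGTGtgtgaggcgcc
USP32: ggcggaagagtCACGTGatccggcatgg
The stretches lie at chr11:113875730-113875757 for USP28, chr17:78840825-78840852 for USP36 and chr17:60392119-60392146 for USP32, all on the reverse strand. The E-box began 174 bases before the start of transcription used for its window in USP28, 27 bases before it in USP36 and 2 bases before it in USP32. A gene can have several starts. In GENCODE release 29, USP36 reaches to chr17:78841441 and USP32 to chr17:60422470, so the stretches of these 2 genes lie inside them. The other window with an E-box belonged to USP6, which was not expressed.

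In shCON the expressed USPs ranged from 1.5 TPM for USP2 to 88.4 TPM for USP14, with a median of 10.3 TPM. USP14, USP39, USP10, USP5 and USP36 were the most abundant and together held 49.9% of the summed USP level. USP14 is bound to the proteasome and trims chains from proteins about to be degraded, and USP39 is a part of the spliceosome that lacks protease activity. The median level was 6.82 TPM with shUSP16#1 and 5.16 TPM with shUSP16#2. The 38 USPs summed to 694 TPM in shCON against 472 and 412 TPM with the hairpins, lower by 32.0% and 40.6%. The order of the most abundant enzymes also differed, since USP14 stood above USP39 and USP5 in shCON and below both of them under either hairpin. Of the 7 USPs under the minimum, USP26, USP29, USP44 and USP50 were listed at 0 in all 3 libraries. USP26 is known as a gene of the testis. USP51 reached 0.04 TPM, USP6 0.13 TPM and USP27X 0.96 TPM at most.

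**Figure D1:**
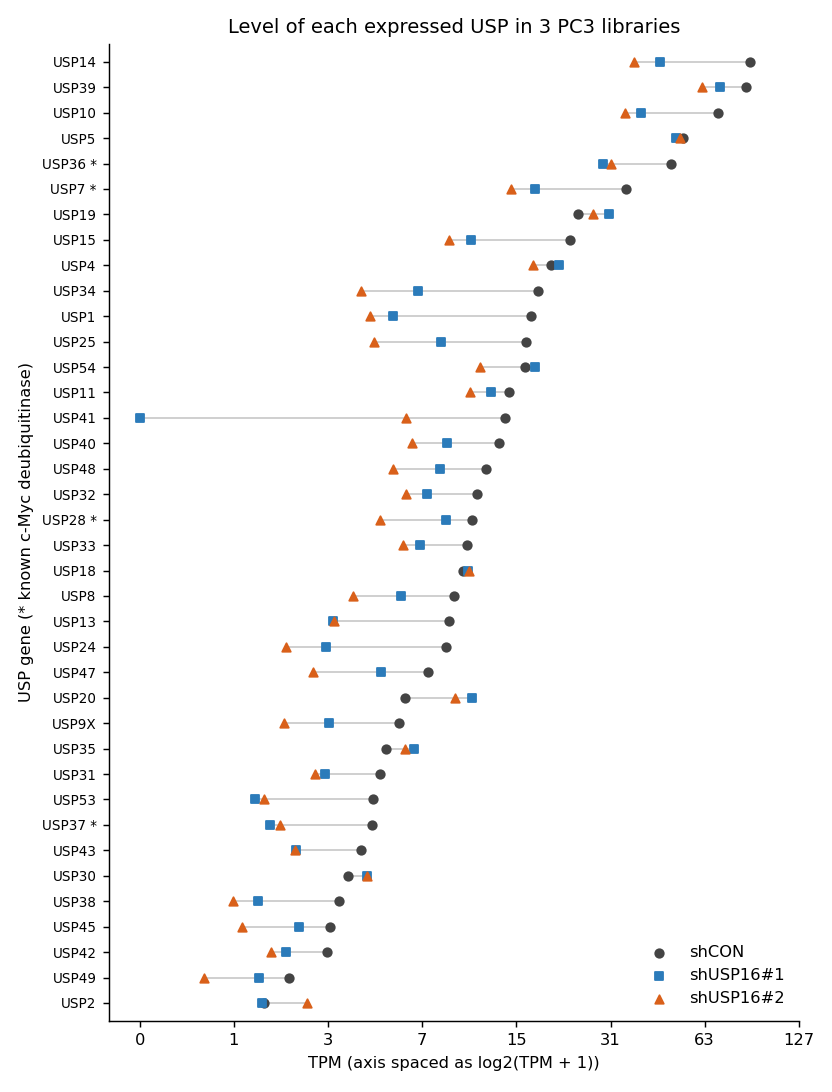
Level of each of the 38 expressed USPs in the 3 libraries, with 1 marker per library and TPM on an axis spaced as log2(TPM + 1). Most USPs lie highest in shCON, as USP14 does at 88.4 TPM, whereas USP20, USP19, USP35 and USP30 lie lowest there.

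The known c-Myc deubiquitinases were lower under both hairpins. USP7, which also acts on p53 and its ligase MDM2, stood at 34.9 TPM in shCON against 17.4 and 14.4 TPM with shUSP16#1 and shUSP16#2, changes of -0.97 and -1.22. USP36, an enzyme of the nucleolus, was at 49.0, 29.4 and 31.1 TPM in the same order, changes of -0.72 and -0.64. USP37, which also stabilizes cyclin A, was at 4.52, 1.6 and 1.8 TPM, changes of -1.09 and -0.98. In all 3 of these genes shCON stood above both hairpins, and the hairpins lay close together. USP28, which acts on c-Myc together with the ligase subunit FBW7, was at 10.6, 8.5 and 4.87 TPM, changes of -0.28 and -0.98. Its level under shUSP16#1 was nearer to shCON than to shUSP16#2.

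The 4 enzymes had a median change of -0.84 under shUSP16#1 and -0.98 under shUSP16#2. The other 34 expressed USPs had medians of -0.51 and -0.91, and all tested genes had -0.17 and -0.37. The c-Myc deubiquitinases thus lay lower than the others by 0.33 under shUSP16#1 and by 0.06 under shUSP16#2 on the log2 scale. Their mean changes over both hairpins ran from -1.09 to -0.63, within the range of the other USPs, which ran from -2.46 to 0.62. The lower end is USP41, which was listed at 0 in 1 library. With a minimum mean of 5 TPM, which drops USP37, the difference of the medians over both hairpins moved from -0.19 to 0.0084. These enzymes lie on different chromosomes of GRCh38 in GENCODE release 29: USP7 at chr16:8892094-8964514, USP36 at chr17:78787381-78841441, USP37 at chr2:218450251-218568361 and USP28 at chr11:113797874-113875570, all on the reverse strand.

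Across the family, 30 of 38 USPs were lower under both hairpins by any amount (78.9%), against 57.2% of all tested genes. USP18, USP19, USP20, USP30 and USP35 were higher under both, 5 USPs (13.2%) against 24.5%. USP2, USP4 and USP54 went in opposite directions. On the log2(TPM + 1) scale, the 7 USPs (18.4%) that fell by 2-fold or more with both hairpins compare with 4.6% of all tested genes. USP7, USP37 and USP38 were not among them, though in TPM without the added 1 they fell by more than 2-fold under both. Their TPM ratios to shCON were 0.497 and 0.414, 0.354 and 0.398, and 0.419 and 0.298. The share of all tested genes was not counted without the added 1. No USP reached a 2-fold rise under both, which 1.14% of all tested genes did. The median change of the USPs was -0.54 under shUSP16#1 and -0.93 under shUSP16#2, which is -0.37 and -0.56 once the medians of all tested genes are subtracted. Below the gene median under both hairpins lay 29 USPs (76.3%), against 41.7% of all tested genes. Transcripts poor in GC had lower changes across all tested genes as well. Once that GC trend was removed, 24 USPs (63.2%) were below the gene median under both hairpins, against 38.8% of genes. Then USP1, USP24 and USP41 were at least 2-fold lower under both hairpins, against 2.07% of genes.

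**Figure D2:**
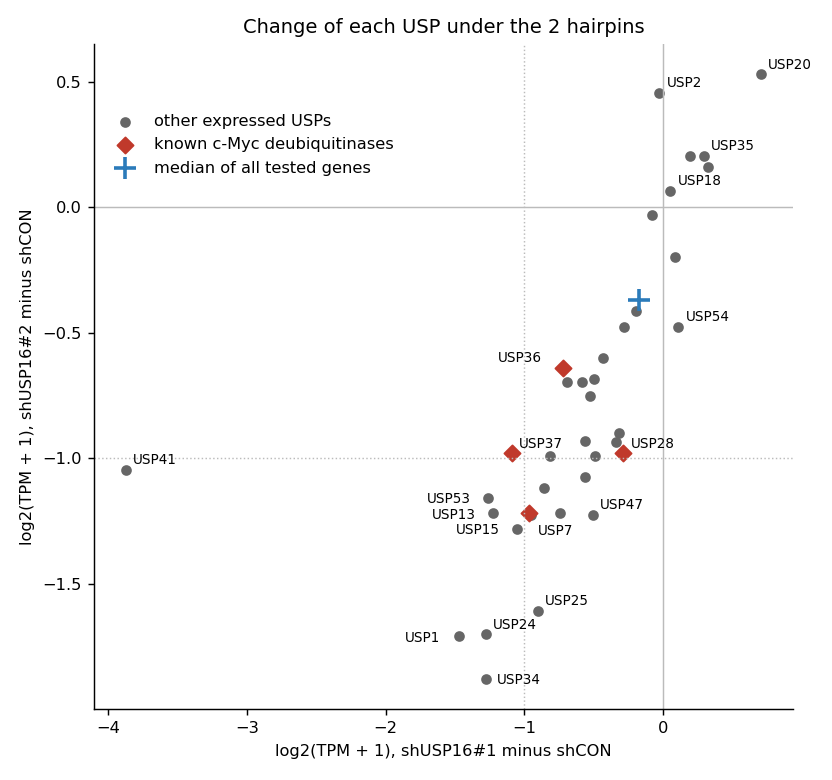
Change of each expressed USP under shUSP16#1 (horizontal axis) and shUSP16#2 (vertical axis), as the difference of log2(TPM + 1) from shCON, with dotted lines at a 2-fold fall. The c-Myc deubiquitinases (diamonds) lie among the other USPs, and most points lie below the median of all tested genes (cross), at -0.17 and -0.37.

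**Figure D3:**
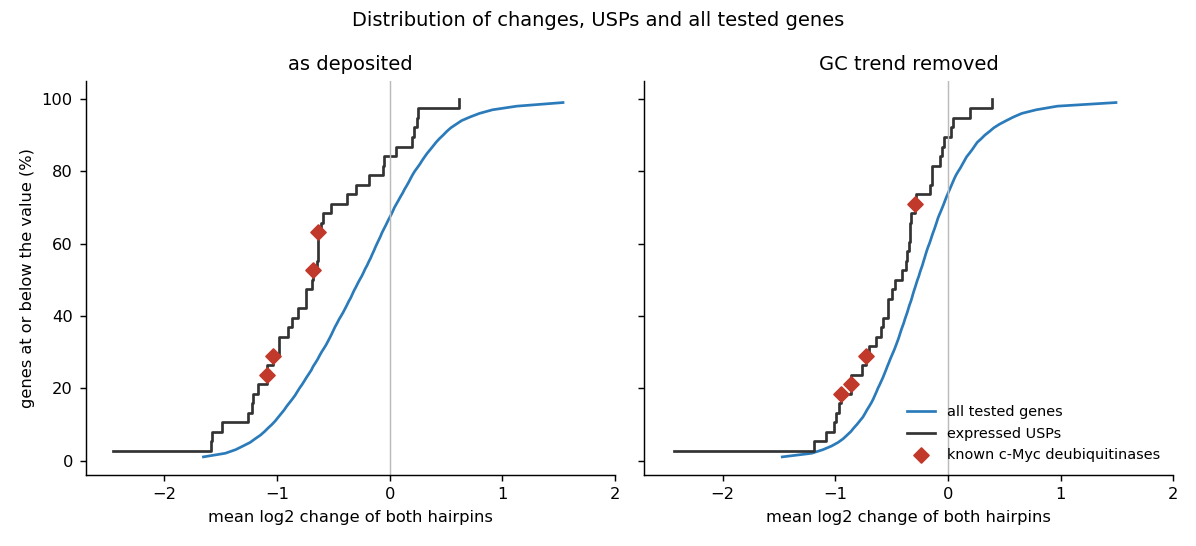
Share of genes at or below each mean change of both hairpins, for the 38 expressed USPs (step line) and all tested genes (smooth line, percentiles 1 to 99), with the c-Myc deubiquitinases as diamonds. The USP line lies to the left of that of all genes in the left panel and closer to it in the right panel, where the GC trend was removed.

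By the mean of both hairpins, USP1 fell most after USP41. It works with WDR48 on FANCD2 and PCNA in DNA repair, and stood at 16.9 TPM in shCON against 5.45 and 4.46 TPM with shUSP16#1 and shUSP16#2, changes of -1.47 and -1.71. Of all tested genes, 1.21% had a mean change as low as this or lower. USP34, a very large enzyme of Wnt signalling, was at 17.8, 6.75 and 4.11 TPM, changes of -1.28 and -1.88. USP24 was at 8.53, 2.93 and 1.93 TPM, changes of -1.28 and -1.70. In these 3 genes both hairpin libraries were far below shCON, and shUSP16#2 was the lowest.
USP13, a relative of USP5, was at 8.71, 3.16 and 3.17 TPM, changes of -1.22 and -1.22. USP53, which is known for its link to tight junctions, was at 4.58, 1.33 and 1.5 TPM, changes of -1.26 and -1.16. USP15, an enzyme of TGF-β signalling, was at 22.7, 10.4 and 8.74 TPM, changes of -1.05 and -1.28. For USP13 and USP53 the levels under the 2 hairpins were almost equal.
USP41 was at 13.7 TPM in shCON, was listed at 0 under shUSP16#1 and was at 6.11 TPM under shUSP16#2. USP41 is a close copy of USP18: 57.6% of the 31-base stretches of its transcript also occur in transcripts of USP18, so its reads cannot be assigned with certainty. Without USP41, 6 USPs were at least 2-fold lower under both hairpins.
On the log2(TPM + 1) scale USP37, USP7 and USP14 lay just short of this threshold, each passing it under 1 hairpin. Under shUSP16#1 alone 8 USPs (21.1%) were at least 2-fold lower, against 5.79% of all tested genes. Under shUSP16#2 alone there were 14 (36.8%), against 19.5%, with USP25, USP38, USP47, USP8, USP9X, USP7 and USP14 among them. The change was lower under shUSP16#2 than under shUSP16#1 in 29 USPs (76.3%), against 73.4% of genes.

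Among the enzymes of free ubiquitin and the proteasome, USP14 stood at 88.4 TPM in shCON against 45.2 and 37.2 TPM with shUSP16#1 and shUSP16#2, changes of -0.95 and -1.23. USP5, which takes apart unanchored chains, was at 53.6, 50.8 and 52.5 TPM, changes of -0.08 and -0.03. USP14 thus stood far above both hairpin libraries in shCON, and the 3 levels of USP5 lay close together.

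Of the 8 USPs listed for p53 and MDM2, 6 were lower under both hairpins, against 57.2% of all tested genes, and 1 of them, USP15, by at least 2-fold, against 4.6%. Their medians were -0.31 and -0.51, against -0.17 and -0.37 for all tested genes. Without the GC trend the medians were -0.42 and -0.60 against -0.18 and -0.37, and 6 of the 8 were below the gene median under both hairpins, against 38.8% of genes. USP10, which acts on p53 outside the nucleus, was at 69.4, 39.1 and 34.5 TPM, changes of -0.81 and -0.99. USP42 was at 2.97, 1.94 and 1.62 TPM. USP2, the lowest of the expressed USPs in shCON, was at 1.5, 1.46 and 2.43 TPM and so stood apart under shUSP16#2 alone. USP4 was at 19.7, 20.9 and 17.02 TPM, with shCON between the hairpins.

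All 8 USPs listed for DNA repair and replication were lower under both hairpins, against 57.2% of all tested genes. Their medians were -0.49 and -0.99 against -0.17 and -0.37. The lists share genes: USP7, USP28 and USP37 of these 8 are c-Myc deubiquitinases, and USP7 and USP11 are also listed for p53 and MDM2. USP47, which acts on DNA polymerase beta, was at 7.37, 4.91 and 2.58 TPM, changes of -0.50 and -1.23. USP48 was at 11.8, 8.15 and 5.44 TPM, and USP45, a relative of USP16, was at 3.07, 2.23 and 1.13 TPM. USP11, a partner of BRCA2, had the changes nearest to 0 in the group and was at 14.2, 12.3 and 10.4 TPM. With the GC trend removed, 4 of the 8 were below the gene median under both hairpins, a share not far from the 38.8% of all genes.

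Enzymes of membrane traffic went both ways. USP8, which acts on receptors at the endosome, was at 9.08, 5.83 and 3.79 TPM, changes of -0.56 and -1.07. USP32 was at 10.9, 7.31 and 6.09 TPM, and USP33 was at 10.1, 6.88 and 5.92 TPM. USP20, which like USP33 binds the VHL protein, stood at 6.06 TPM in shCON against 10.6 and 9.2 TPM with shUSP16#1 and shUSP16#2, changes of 0.71 and 0.53. Its changes were the highest of the 38 expressed USPs, though under 2-fold.

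The 3 USPs listed for mitochondria and the endoplasmic reticulum were all higher under both hairpins, by less than 2-fold, as were 24.5% of all tested genes by any amount. USP19, which has a form anchored in the endoplasmic reticulum, was at 24.3, 30.6 and 27.2 TPM, changes of 0.33 and 0.16. USP30, which sits in the outer mitochondrial membrane and opposes parkin, was at 3.63, 4.31 and 4.34 TPM, changes of 0.20 and 0.21. USP35 was at 5.12, 6.53 and 6.06 TPM, changes of 0.30 and 0.21. With the GC trend removed, the mean change was -0.14 for USP19 and -0.16 for USP35, and it was 0.39 for USP30 and 0.19 for USP20.

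USP39 of the spliceosome was at 86.0, 70.6 and 61.6 TPM, changes of -0.28 and -0.48. USP18, which removes the ubiquitin-like protein ISG15 and is induced by interferon, was at 9.79, 10.2 and 10.3 TPM, nearly level across the libraries, but 30.8% of its 31-base stretches occur in other genes. USP49, which acts on histone H2B, was at 2, 1.41 and 0.61 TPM. Of the enzymes the study screened with hairpins, USP38 was at 3.32, 1.39 and 0.99 TPM, changes of -0.85 and -1.12, and USP40 was at 13.1, 8.59 and 6.41 TPM, changes of -0.56 and -0.93. Both were highest in shCON and lowest under shUSP16#2.
Of the remaining USPs, USP25 was at 16.1, 8.17 and 4.62 TPM, changes of -0.90 and -1.61. USP9X, which protects the survival protein MCL1, was at 5.74, 3.03 and 1.9 TPM, changes of -0.74 and -1.22. In both genes shCON was the highest and shUSP16#2 the lowest. USP31 was at 4.88, 2.92 and 2.63 TPM, and USP43 was at 4.08, 2.15 and 2.14 TPM. USP54 was at 16, 17.4 and 11.2 TPM, with shCON between the hairpins.

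Related enzymes often differed in their response. There were 11 sets of paralogs with at least 2 expressed members. USP13 fell and USP5 had a mean change of -0.052, a difference of 1.17. USP20 had a mean change of 0.62 and USP33 of -0.59, a difference of 1.21, and USP35 and USP38 differed by 1.24. USP54 and USP53 differed by 1.03, and USP4 and USP15 by 1.11, with USP11 between them. In each of these 5 sets the transcript of the lower gene had the lowest GC content, and the GC contents were 44.5% for USP13, 38.2% for USP33, 40.1% for USP38, 37.1% for USP53 and 36.5% for USP15, against 57.7%, 60.4%, 61.3%, 50.04% and 49.2% for USP5, USP20, USP35, USP54 and USP4. USP18 and USP41 differed most, by 2.52, with GC contents of 51.6% and 51.0%, but that value rests in part on USP41 being listed at 0 in 1 library. USP24 was 0.51 below USP9X although its transcript was the richer in GC. USP31 and USP43 differed by 0.051, although their GC contents were 45.3% and 56.5%. In 6 of the 11 sets the gene richest in GC had the highest change, and in 4 the shortest gene did. Among the c-Myc deubiquitinases, USP28 was 0.62 above its paralog USP25, USP36 was 0.16 below USP42, and USP7 was 0.23 below USP47.

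**Figure D4:**
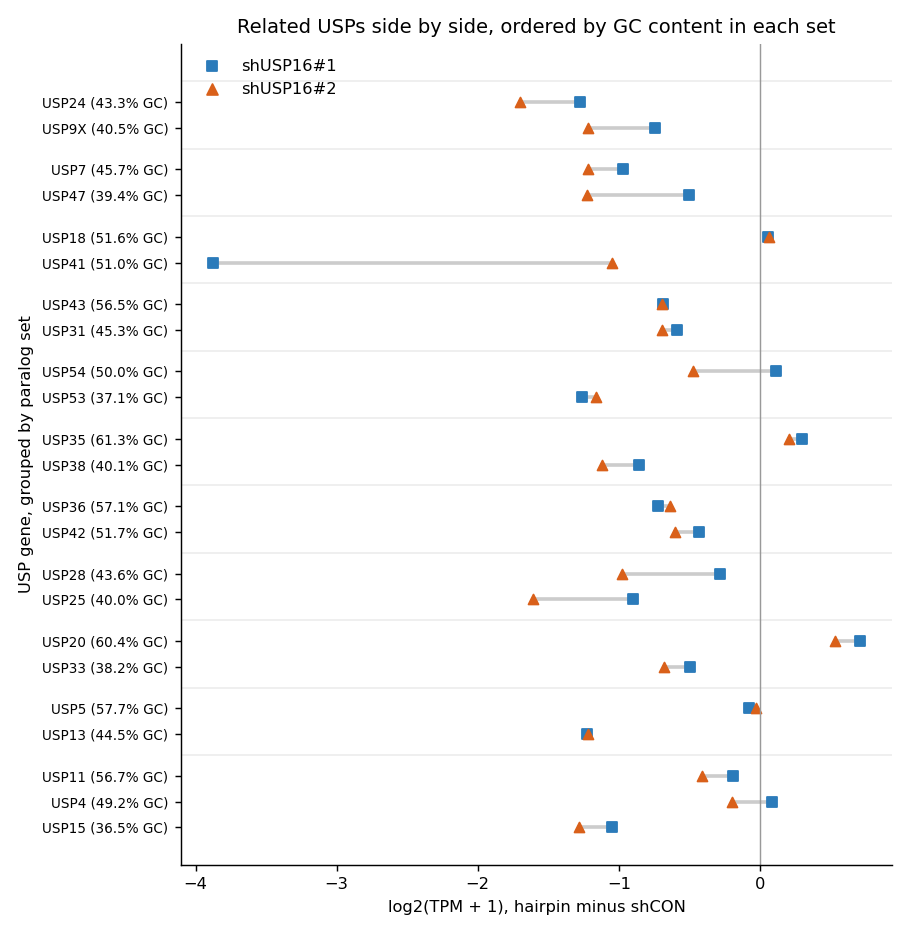
Change under each hairpin for the 11 paralog sets with at least 2 expressed USPs, as the difference of log2(TPM + 1) from shCON, with the GC content of each transcript beside its name and the gene richest in GC at the top of each set. USP5, USP20, USP35 and USP54 lie to the right of their relatives, whereas USP7 and USP47 lie close together.

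Deposited transcript lengths of the expressed USPs ran from 1077 bases for USP41 to 19026 bases for USP8, with a median of 5064 bases against 2651 bases for all tested genes. Their GC content had a median of 45.5%, against 50% for all tested genes. Over the 38 USPs the rank correlation of the mean change with GC content was 0.65 and with length -0.35. Over all tested genes the values were 0.62 and -0.30. Without USP41 the values over the 37 USPs were 0.72 and -0.46. These points share the same 3 libraries, and GC content and length were themselves related among the USPs, with a rank correlation of -0.46, so their parts cannot be told apart by these values.
In the 12 USPs lowest in GC content, from 34.8% to 40.5%, all 12 were lower under both hairpins, against 57.2% of all tested genes of any GC content. The median of the mean changes was -1.04 in these 12. In the 13 in the middle, up to 49.9%, it was -0.64, and in the 13 highest, from 50.04% to 61.3%, it was -0.18. By length, the median was -0.34 in the 12 shortest, up to 4070 bases, -0.63 in the next 13 and -0.98 in the 13 longest, from 5936 bases. Of the c-Myc deubiquitinases, USP37 at 3353 bases was among the 12 shortest, and USP28 at 4669, USP36 at 5234 and USP7 at 5831 bases were in the middle. Their GC contents were 43.5%, 43.6%, 57.1% and 45.7% in the same order, so USP36 was lower under both hairpins although its transcript was among the richest in GC. With the GC trend removed the 4 enzymes had medians of -0.82 and -0.77, the other 34 USPs -0.32 and -0.52 and all tested genes -0.18 and -0.37. Of the 4 enzymes, 3 were then below the gene median under both hairpins, against 38.8% of genes. The exception was USP28, at -0.016 and -0.56. With GC and length trends removed together, an alternative chosen after seeing the data, the USPs had medians of -0.27 and -0.42 against the same -0.18 and -0.37. USP1 and USP41 were then at least 2-fold lower under both hairpins, against 2.06% of genes.

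**Figure D5:**
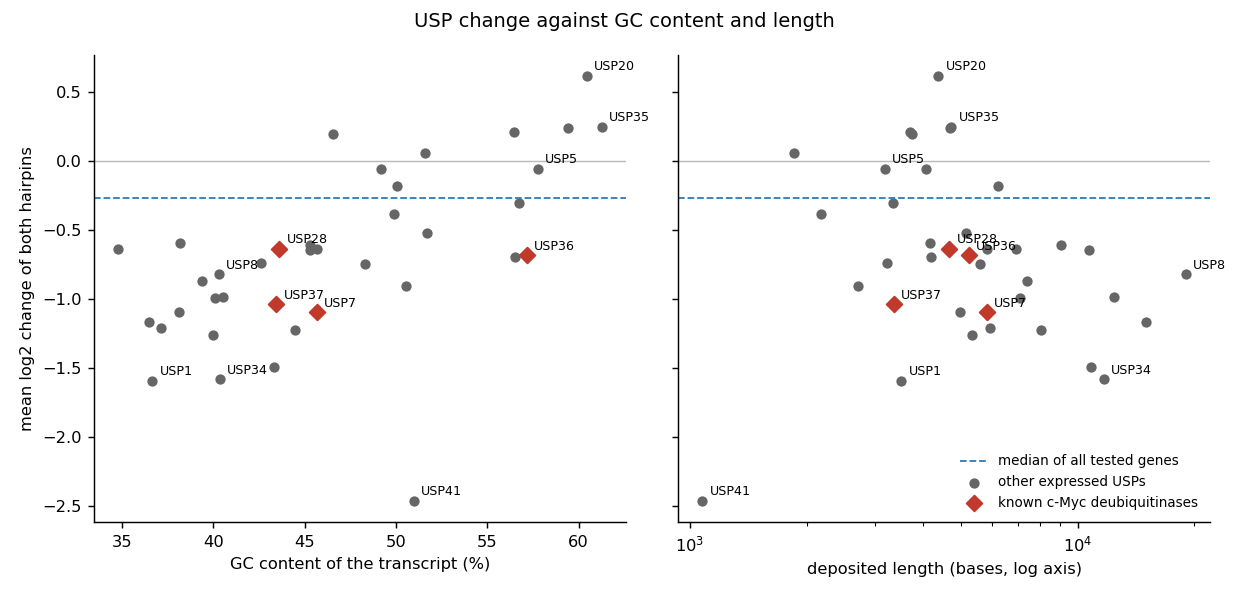
Mean log2 change of both hairpins for the 38 expressed USPs against the GC content of the transcript (left) and the deposited length on a log axis (right), with the c-Myc deubiquitinases as diamonds and the median of all tested genes, -0.27, as a dashed line. Points rise with GC content, and USP36 at 57.1% GC lies below its neighbours USP11 and USP5.

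Deubiquitinases of the other families were compared with the USPs. Of 40 such genes 35 were expressed. UCHL5, OTUD4, OTUD6B, YOD1 and BRCC3 fell by 2-fold or more with both hairpins, 5 of the 35, against 4.6% of all tested genes, and 0 rose by as much, against 1.14%. UCHL5, which like USP14 binds the proteasome, was at 34.9, 16.2 and 13.9 TPM, and BRCC3, a subunit of BRCA1 complexes, was at 14.2, 6.05 and 4.65 TPM. Both stood well above the hairpin libraries in shCON. The medians of the 35 were -0.36 under shUSP16#1 and -0.72 under shUSP16#2, between those of the USPs and those of all tested genes, and their median GC content was 44.6%. With the GC trend removed the medians of the 35 were -0.23 and -0.41, against -0.35 and -0.53 for the USPs and -0.18 and -0.37 for all tested genes. Then 1 of the 35, BRCC3, was at least 2-fold lower under both hairpins, against 2.07% of genes. Below the gene median under both lay 14 of the 35 (40%), against 38.8% of genes.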

How the data were processed

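RNA-seq of 3 PC3 libraries was analysed, 1 per condition. The authors deposited TPM values per gene, made on the Majorbio Cloud Platform. The submitters' processing notes name CASAVA, HISAT2 and hg19; the quantification tool and annotation are not given in the sources used here, nor is how a length was chosen for a gene with several transcripts. TPM keeps no record of depth, so no interval was given. The 3 columns that repeat the TPM columns, and the annotation columns, were not used.

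Names that occur repeatedly kept the entry with the highest mean (1211 entries left out). Genes averaging 1 TPM or more were kept, 1 TPM was added before taking logs, and genes were called at 2-fold in the same direction under both hairpins. GC content came from the GENCODE release 29 transcript nearest to the deposited length, for 13296 of 13637 genes, and coordinates from the same release on GRCh38, joined by gene ID. The length was identical for 23 of the 38 USPs. Trends were removed by taking off the median change within each of 50 bins and then restoring the overall median. Alternatives were a pseudocount of 0.1 TPM, centring, a minimum of 5 TPM or none, a single hairpin, removal of the GC or length trend, and TPM rescaled over protein-coding genes. Removal of both trends and leaving out USP41 were chosen after seeing the data.

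Every USP with a mean of at least 1 TPM is named, with USP16 and the deubiquitinases of other families that were called. Members and lists were chosen with earlier results of these data known. The arithmetic was tested on simulated data. Python 3.11.15 was used with matplotlib 3.10.9, pandas 2.3.3, scipy 1.17.1 and numpy 2.4.6.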

Additional observations from a re-analysis of the deposited data

How the results depend on the processing

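No paired analysis was possible because there was a single library of each condition, and a value was taken as moved where it changed by more than the SD between the 2 hairpins. The count of 7 USPs that fell 2-fold or more with both hairpins has no such SD. It was 3 when centred, 3 with the GC trend removed, 2 with the length trend removed and 2 with both removed. With a pseudocount of 0.1 TPM it was 10, which added USP7, USP37 and USP38, and with a minimum of 5 TPM it was 5. It was 8 counted in shUSP16#1 alone and 14 in shUSP16#2 alone, which relax the condition. The cause of the other differences was not tested. USPs lower by any amount became 19 of 25 with a minimum of 5 TPM, where fewer genes were tested. The median mean change of the c-Myc deubiquitinases moved from -0.86 to -0.68 at a minimum of 5 TPM, -0.59 when centred, -0.98 with shUSP16#2 alone, -0.66 with the length trend removed and -0.69 with both trends removed. With both removed, the median of all expressed USPs moved from -0.69 to -0.35 and that of the other 34 from -0.67 to -0.32. The difference between the c-Myc deubiquitinases and the other USPs moved from -0.19 to 0.0084 with a minimum of 5 TPM and to -0.41 with the GC trend removed. With a pseudocount of 0.1 TPM it was -0.064, a change smaller than the SD between the hairpins. USP1 was at least 2-fold lower under both hairpins in every alternative. The sign of the mean change was lost in 3 of 38 USPs when centred, 3 under shUSP16#1 alone, 4 with the GC trend removed, 3 with the length trend removed and 6 with both removed.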

Other observations

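Partners of these enzymes were also measured. Of 10 listed cofactors and genes of the ubiquitin supply, all were expressed and the median changes were -0.10 under shUSP16#1 and -0.31 under shUSP16#2, against -0.17 and -0.37 for all tested genes. Of the 10, 7 were lower under both hairpins and 3 were below the gene median under both, against 57.2% and 41.7% of all tested genes. UBA6, an enzyme that activates ubiquitin, was the single gene of the 10 that fell by 2-fold or more with both: it stood at 21.5 TPM in shCON against 5.64 and 6.03 TPM with shUSP16#1 and shUSP16#2, and its transcript has 35.7% GC. WDR48, the partner of USP1, was at 9.78, 8.73 and 4.82 TPM, changes of -0.15 and -0.89, whereas USP1 itself changed by -1.47 and -1.71.

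Exons of some USPs overlap exons of other genes, and the protocol does not say whether strand was kept. VIL1 covers 32.8% of the exon bases of USP37 on the opposite strand and was at 0.17 TPM or below in every library. AHSA2P covers 18.0% of USP34 on the opposite strand and was at 7.47, 6.32 and 5.78 TPM, while USP34 was at 17.8, 6.75 and 4.11 TPM. PPP3CB-AS1 covers 16.1% of USP54 on the opposite strand and was at 3.01, 1.55 and 0.88 TPM. AC127459.1 covers 23.0% of the exon bases of USP31 on the same strand and was at 0.45, 0.07 and 0.11 TPM. USP32 and USP10 share 37.5% and 32.7% of their 31-base stretches with other genes. Their levels are thus less certain than those of USPs that share little sequence.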
